A study of Mus musculus with 12 samples.

Results

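The genes described here are the chemokines and chemokine receptors of the mouse liver, 44 of the 16292 genes in the deposited tables. They were taken by symbol, with earlier results of these data known: every gene named Ccl, Cxcl or Ccr, Cxcr or Ackr with a number, together with *Cx3cl1*, *Cx3cr1*, *Xcl1*, *Xcr1* and *Ccrl2*. They comprise 26 ligands, 13 receptors and 5 atypical receptors. Chemokines are small secreted proteins that form gradients on cells and matrix, and leukocytes that carry a matching receptor, which signals through inhibitory G proteins, move along them. In the injured liver, hepatocytes, Kupffer cells (the resident macrophages), stellate cells and endothelium release chemokines that draw neutrophils, monocytes and lymphocytes from the blood. Atypical receptors bind chemokines without this G protein signal and mostly remove or transport them.

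RNA was measured in liver tissue specimens of female C57BL/6 mice, in 4 groups of 3 libraries each. *Lcn2* null (Lcn2-/-) mice, which lack the secreted, iron-trapping protein lipocalin 2 in all cells, were given CCl4, wild type mice were given CCl4, *Lcn2* null mice were given mineral oil, and wild type mice were given mineral oil. CCl4, a liver toxin used to cause fibrosis, was injected into the peritoneum at 0.8 ml/kg in mineral oil. All mice thus received mineral oil, 2 injections a week over 8 weeks, starting when they were 8 weeks old. Livers were perfused and taken 48 h after the final dose, and no uninjected mice were analysed here.

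The libraries held 7582962 to 14591487 reads in genes, so that 3 reads equalled 0.206 to 0.396 CPM (the reads of a gene, scaled so that the reads in genes sum to the same total in every library). The labels describe libraries from the 3′ end of each transcript, so a CPM needs no scaling by gene length. *Lcn2* itself was at 3.44 to 16.7 CPM in the *Lcn2* null libraries and at 345 to 1045 CPM in the wild type libraries; where these reads lie relative to the deleted part is not given in the sources used here. Replicates are known only by number, and whether they are separate mice is not stated, so the p-values rest on the spread among these libraries alone, and that spread may be technical. Replicate 3 of the *Lcn2* null CCl4 group stood apart for these genes: it was the lowest of its group for 35 of the 44. Replicate 3 of the wild type oil group was the lowest of its group for 23 of them. The same counts over all genes were not made, so whether these libraries were low for many other genes is not shown. Hepatocyte markers were the dominant signal in all groups, with a summed level of 64789 to 106536 CPM, lowest in wild type oil replicate 3. Differences were tested with limma on log2(CPM + 1), a scale that makes the changes of low genes look smaller than they are. A call required an adjusted p no larger than 0.05 together with a change beyond 0.56 log2 units (1.47-fold). Each ± is an SD of 3 libraries.

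Levels were modest for most of these genes. The highest group mean was at least 10 CPM for 13 of them, between 1 and 10 CPM for 25 and under 1 CPM for 6. The *Lcn2* null oil group had the lowest mean for 27 of the 44 genes, the *Lcn2* null CCl4 group for 7, the wild type CCl4 group for 3 and the wild type oil group for 7. The same counts over all genes were not made. CPM of most genes moved upward with CCl4, with a median log2 fold change over all genes of 0.35 in *Lcn2* null and 0.27 in wild type livers. The counts are therefore not a trait of these genes alone. *Cxcl12*, which keeps hematopoietic cells in place through *Cxcr4*, and *Ccl9*, a ligand of *Ccr1*, were the most abundant members in 3 of the 4 groups. In the wild type oil group *Cxcl13*, the B cell attractant that binds *Cxcr5*, came second by its mean of 158 ± 145 CPM, although its 3 libraries ranged from 25.5 to 313 CPM. The exons of 8 members overlap those of another protein coding gene in GENCODE M21 (GRCm38), among them *Cxcl16* with *Zmynd15* and *Cxcl10* with *Art3* on the other strand and *Ackr1* with *Cadm3* on the same strand. The strand setting of the counting is not given in the sources used here, so shared reads cannot be told apart. *Ccl19*, *Ccl21a* and *Ccl27a* have near-identical copies in the mouse genome, and their values are uncertain for that reason.

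On mineral oil, the chemokine and receptor transcripts that passed the test were all lower in *Lcn2* null livers than in wild type livers. Of the 38 members measured in this comparison, 7 were called lower and 0 higher, against a background of 3.80% of all 14202 genes called lower and 1.11% called higher. The called members were the ligands *Cxcl13*, *Cxcl1*, *Ccl6*, *Cxcl16* and *Ccl5* and the receptors *Cxcr4* and *Cx3cr1*. In all, 29 of the 38 had a log2 fold change below 0, as had 54.6% of all genes. The members' median log2 fold change was -0.46, beside -0.03 over all genes. At an unadjusted p under 0.05, 16 members were lower and 2 higher, against a background of 12.1% and 7.22%. All *Lcn2* null libraries lay below all wild type libraries for 14 members and above them for 3, beside 14.3% and 9.84% of all genes. edgeR on recovered reads called 9 lower and 0 higher (background 3.39% and 1.34%), and DESeq2 called 12 lower and 2 higher (background 4.80% and 1.86%). In bulk tissue, fewer cells of a type and less RNA per cell cannot be told apart.

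The attractants of B cells and of neutrophils, *Cxcl13* and *Cxcl1*, were among the members called lower. *Cxcl13* was at 3.92, 5.60 and 7.31 CPM in *Lcn2* null livers, against 313, 136 and 25.5 CPM in wild type livers (log2 fold change -4.01, standard error 0.62, adjusted p = 0.00305). All *Lcn2* null libraries lay below all wild type libraries, and within the wild type group the libraries themselves differed by more than an order of magnitude. *Cxcl1*, the KC chemokine that draws neutrophils through *Cxcr2*, was at 10.7, 26.7 and 18.2 CPM in *Lcn2* null livers, against 42.8, 67.9 and 134 CPM in wild type livers (log2 fold change -2.01, standard error 0.35, adjusted p = 0.00576). Again the groups did not overlap, and wild type replicate 3 was the highest for *Cxcl1* and the lowest for *Cxcl13*. Its relatives *Cxcl2* and *Cxcl5*, which bind the same receptor, were sparse. *Cxcl2* gave 3 reads over the *Lcn2* null group and 11 over the wild type group, and was left untested for this comparison, as it was not in that table. *Cxcl5* was at 0.327, 0 and 0.496 CPM in *Lcn2* null livers and 1.09, 0.240 and 0.240 CPM in wild type livers, which overlapped (log2 fold change -0.23, standard error 0.29, adjusted p = 0.729). *Cxcr2*, also outside this table, had 7 reads in the *Lcn2* null group and 11 in the wild type group, too few to show a difference at this depth.

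*Cxcl1* and *Cxcl13* both lie on chromosome 5 of GRCm38, together with *Ccl24*, *Cxcl2*, *Cxcl5*, *Cxcl9*, *Cxcl10* and *Cxcl11*. Because *Cxcl1*, *Cxcl2* and *Cxcl10* are textbook targets of NF-kappaB, the transcription factor of the inflammatory response, the 180 bases upstream of the start site are shown for 5 ligands, so that the letters can be set beside the levels. Capitals mark matches to the NF-kappaB consensus, searched on both strands, and overlapping matches are drawn as 1 run. The first 3 sequences hold a match, and the last 2, of ligands called lower on oil, hold none.
Cxcl1: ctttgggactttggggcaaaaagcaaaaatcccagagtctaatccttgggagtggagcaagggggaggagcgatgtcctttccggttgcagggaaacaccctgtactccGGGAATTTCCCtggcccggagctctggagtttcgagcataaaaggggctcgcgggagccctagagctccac
Cxcl2: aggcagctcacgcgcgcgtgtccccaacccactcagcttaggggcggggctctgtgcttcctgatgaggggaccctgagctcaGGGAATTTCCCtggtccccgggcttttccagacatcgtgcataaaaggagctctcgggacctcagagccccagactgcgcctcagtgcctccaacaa
Cxcl10: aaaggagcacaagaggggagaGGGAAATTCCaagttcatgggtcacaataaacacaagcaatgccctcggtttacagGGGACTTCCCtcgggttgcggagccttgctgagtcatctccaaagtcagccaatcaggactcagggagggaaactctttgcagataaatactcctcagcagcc
Cxcl13: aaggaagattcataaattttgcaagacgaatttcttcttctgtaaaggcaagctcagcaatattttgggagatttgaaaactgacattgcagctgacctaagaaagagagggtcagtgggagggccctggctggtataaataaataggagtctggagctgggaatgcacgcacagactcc
Ccl6: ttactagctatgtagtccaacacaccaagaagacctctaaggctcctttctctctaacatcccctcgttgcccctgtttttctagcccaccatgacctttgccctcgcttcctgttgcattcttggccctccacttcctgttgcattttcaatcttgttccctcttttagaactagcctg
The windows are from RefSeq on GRCm38.p6: chr5:90891065-90891244 on the plus strand for *Cxcl1*, chr5:90903719-90903898 on the plus strand for *Cxcl2*, chr5:92348890-92349069 on the minus strand for *Cxcl10*, chr5:95956759-95956938 on the plus strand for *Cxcl13* and chr11:83593088-83593267 on the minus strand for *Ccl6*. The match begins 71 bases before the start of *Cxcl1* and 97 bases before that of *Cxcl2*, and both genes have the same 11 letters. *Cxcl10* has matches beginning 159 and 103 bases before its start. In windows of 300 bases, from 250 bases before to 50 after the start, 8 of the 33 members with a window held a match (24.2%), beside 5.14% of the 27025 genes with a window. Of the members called lower on oil, *Cxcl1* held a match, *Cxcl13*, *Ccl6*, *Cxcr4* and *Cx3cr1* held none, and *Cxcl16* and *Ccl5* had no window here. A match is a description of the letters and not a bound site.

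The ligands of monocytes and macrophages were spread more evenly. *Ccl6*, a macrophage chemokine that signals through *Ccr1*, was at 7.96, 14.3 and 18.8 CPM in *Lcn2* null livers, against 44.9, 39.5 and 29.5 CPM in wild type livers (log2 fold change -1.46, standard error 0.25, adjusted p = 0.00501). *Cxcl16*, a membrane-anchored ligand shed to draw *Cxcr6*-bearing T and NKT cells, was at 12.8, 10.8 and 13.1 CPM in *Lcn2* null livers, against 31.8, 27.7 and 20.4 CPM in wild type livers (log2 fold change -1.04, standard error 0.17, adjusted p = 0.00446). Neither gene had overlapping groups. *Ccl5*, the T cell and monocyte attractant RANTES, was at 1.74, 2.44 and 2.48 CPM in *Lcn2* null livers, against 5.28, 5.52 and 4.69 CPM in wild type livers (log2 fold change -0.94, standard error 0.23, adjusted p = 0.0297). Its groups were separate too, but its call was lost without any 1 library other than wild type replicate 3 (adjusted p up to 0.12).

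Several further ligands had the same direction without passing limma's test over all genes. *Ccl2*, the main monocyte attractant and the ligand of *Ccr2*, was at 7.63, 3.80 and 6.69 CPM in *Lcn2* null livers, against 36.8, 14.4 and 6.49 CPM in wild type livers (log2 fold change -1.26, standard error 0.44, adjusted p = 0.129). The groups overlapped, since wild type replicate 3 lay within the range of the *Lcn2* null libraries. *Ccl7*, which also binds *Ccr2*, was at 0.109, 0.0717 and 0.496 CPM in *Lcn2* null livers and 3.46, 0.840 and 1.08 CPM in wild type livers (log2 fold change -1.09, standard error 0.34, adjusted p = 0.0827), with no overlap, and DESeq2 called it (adjusted p = 0.00867). *Ccl4*, a chemokine gene not to be confused with the toxin CCl4, encodes an attractant of T cells and monocytes. It had 0 reads in all *Lcn2* null libraries, against 0.728, 0.720 and 0.601 CPM in wild type livers, and so was at least 7.14-fold lower by a floor of 3 reads over the group. *Ccl12*, a mouse relative of *Ccl2*, also had 0 reads in every *Lcn2* null library, against 1.46, 0.960 and 0.361 CPM in wild type livers, and was at least 10.2-fold lower. Both rest on few reads, 19 and 27 over the wild type group, and edgeR called them (adjusted p = 0.0393 and 0.0337) where limma did not (adjusted p = 0.0829 and 0.0750). *Ccl3*, a close relative of *Ccl4* that binds *Ccr1*, was not in this table and had 1 read in the *Lcn2* null group and 13 in the wild type group. *Ccl8*, another monocyte attractant, was at 0 to 0.124 CPM in *Lcn2* null livers and 0.480 to 0.721 CPM in wild type livers (adjusted p = 0.155). *Cxcl14*, a ligand of epithelium and fibroblasts whose receptor is disputed, had a log2 fold change of -1.02 (adjusted p = 0.124) and overlapping groups, and was called by DESeq2 (adjusted p = 0.0354).

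A few ligands stood on the other side. *Ccl24*, the eosinophil attractant eotaxin-2 that binds *Ccr3*, was at 9.05, 5.81 and 8.68 CPM in *Lcn2* null livers, against 3.27, 3.96 and 5.29 CPM in wild type livers (log2 fold change 0.77, standard error 0.24, adjusted p = 0.0822). *Cxcl11*, annotated as a polymorphic pseudogene because its reading frame is broken in C57BL/6, was at 4.47, 4.88 and 7.19 CPM in *Lcn2* null livers, against 3.0, 1.56 and 3.01 CPM in wild type livers (log2 fold change 0.89, standard error 0.27, adjusted p = 0.0729). The libraries of both genes did not overlap, and DESeq2 on recovered reads called both (adjusted p = 0.0188 and 0.0168). *Ccl9* and *Cxcl12*, the abundant ligands, differed by less than their spread. *Ccl9* was at 88.5 ± 13.1 CPM in *Lcn2* null livers and 88.3 ± 2.83 CPM in wild type livers (log2 fold change -0.01, standard error 0.12). *Cxcl12* was at 248 ± 18.4 CPM in *Lcn2* null livers and 256 ± 21.2 CPM in wild type livers (log2 fold change -0.05, standard error 0.10). The other ligands tested, *Ccl19*, *Ccl21a*, *Ccl25*, *Ccl27a*, *Cx3cl1*, *Cxcl9*, *Cxcl10* and *Xcl1*, had log2 fold changes between -0.58 and 0.40 and were not called.

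Among the receptors, *Cxcr4*, the receptor of *Cxcl12* on most leukocytes, was at 0.545, 0.430 and 0.248 CPM in *Lcn2* null livers, against 2.64, 2.88 and 2.28 CPM in wild type livers (log2 fold change -1.36, standard error 0.24, adjusted p = 0.00592). *Cx3cr1*, which marks patrolling monocytes and some macrophages, was at 0.327, 1.0 and 0.868 CPM in *Lcn2* null livers, against 3.09, 3.48 and 2.16 CPM in wild type livers (log2 fold change -1.18, standard error 0.27, adjusted p = 0.0218). Both genes kept their groups apart, while the call of *Cx3cr1* was lost without any 1 of *Lcn2* null replicates 1 and 2 and wild type replicates 1 and 2 (adjusted p up to 0.098). Its only ligand *Cx3cl1*, fractalkine, was at 0.109 to 0.430 CPM in *Lcn2* null livers and 0.240 to 1.64 CPM in wild type livers, which overlapped. The monocyte receptor *Ccr2* was at 0.981, 1.79 and 0.992 CPM in *Lcn2* null livers and 3.55, 3.60 and 0.721 CPM in wild type livers (log2 fold change -0.57, standard error 0.36, adjusted p = 0.433), where wild type replicate 3 lay below every *Lcn2* null library. *Ccr1* was at 0 to 0.436 CPM in *Lcn2* null livers and 0.910 to 1.08 CPM in wild type livers, with no overlap (adjusted p = 0.159). *Cxcr5*, the receptor of *Cxcl13* on B cells, was at 2.76 ± 0.736 CPM in *Lcn2* null livers and 3.21 ± 0.908 CPM in wild type livers, with overlapping libraries (log2 fold change -0.16, standard error 0.26, adjusted p = 0.805). *Cxcr6*, the receptor of *Cxcl16*, was at 0.430 to 0.868 CPM in *Lcn2* null livers and 0.240 to 0.481 CPM in wild type livers. *Cxcr3*, of activated T cells, and *Xcr1*, of cross-presenting dendritic cells, were at 1.46 CPM or less in every oil library and not called. The eosinophil receptor *Ccr3* and the lymphoid homing receptors *Ccr7* and *Ccr9* were outside this table, with 8, 0 and 12 reads over the *Lcn2* null group and 2, 11 and 5 over the wild type group. None of the 5 atypical receptors was called, and their log2 fold changes lay between -0.62 for *Ackr3*, a scavenger of *Cxcl12*, and 0.00 for *Ackr4*.

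**Figure D1:**
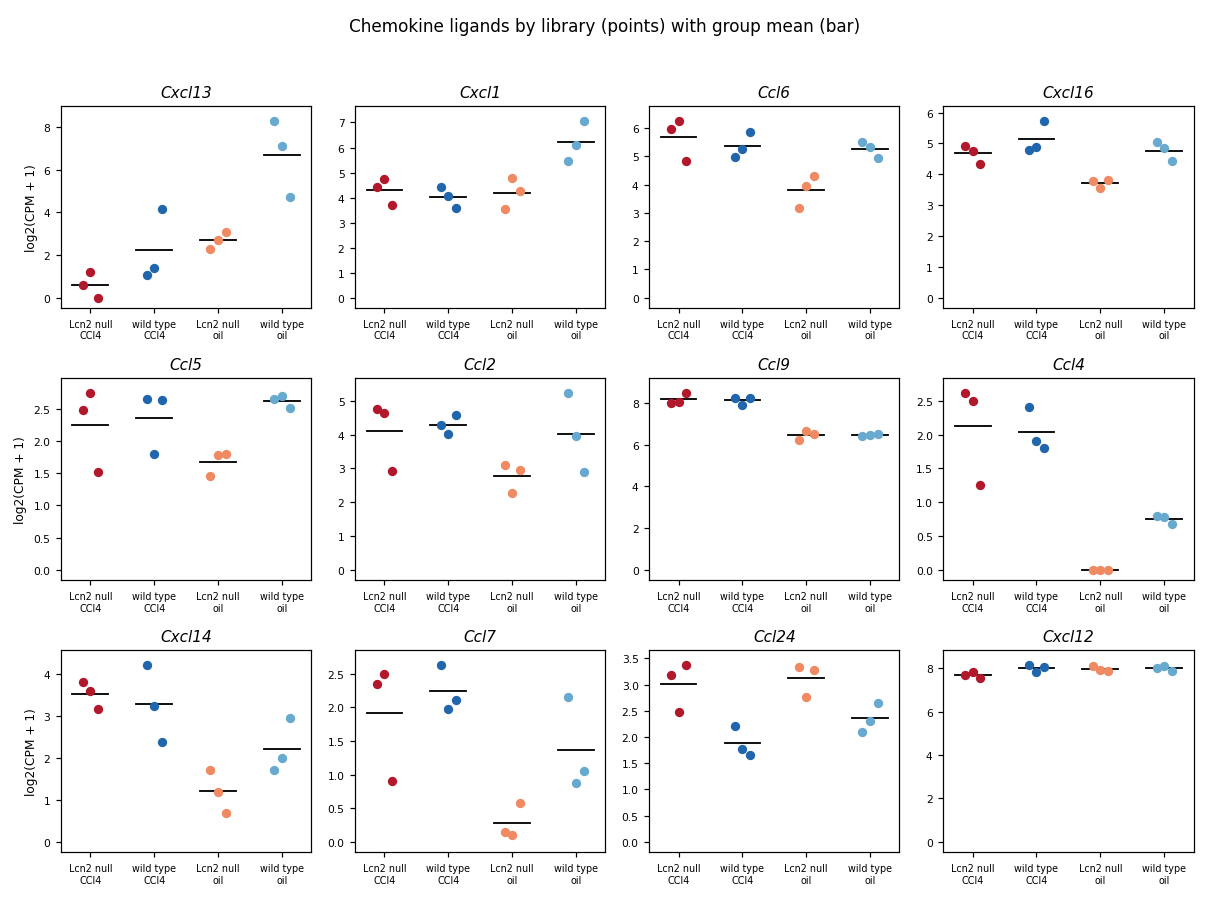
CPM of 12 chemokine ligands on the log2(CPM + 1) scale (vertical axis), with 1 point per library, a bar at the group mean, and the groups in the order *Lcn2* null CCl4, wild type CCl4, *Lcn2* null oil, wild type oil. The *Lcn2* null oil libraries of *Cxcl13*, *Cxcl1*, *Ccl6*, *Cxcl16* and *Ccl5* lie below the wild type oil libraries, while those of *Ccl9* and *Cxcl12* overlap between the genotypes on oil.

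Markers of leukocytes and of the liver surface moved with these genes on oil. Of the monocyte and inflammatory macrophage list, 17 of 20 measured genes were called lower in *Lcn2* null livers, and the summed level was 304 to 424 CPM in *Lcn2* null libraries and 640 to 1238 CPM in wild type libraries. Of the Kupffer cell list 12 of 16 were lower, with sums of 789 to 993 CPM in *Lcn2* null libraries and 1264 to 1972 CPM in wild type libraries. Of the neutrophil list 9 of 13 were lower, with sums of 1818 to 2136 CPM in *Lcn2* null libraries and 3291 to 4003 CPM in wild type libraries. *Wfdc21* made up 54.1% to 85.7% of the neutrophil sum on oil; without it the sums were 260 to 401 CPM in *Lcn2* null libraries and 825 to 1709 CPM in wild type libraries. Most of that rest was *Lrg1*, which hepatocytes also express; without both genes the sums were 30.8 to 55.7 CPM in *Lcn2* null libraries and 204 to 317 CPM in wild type libraries. Of the mesothelium list 10 of 12 were lower, with sums of 164 to 196 CPM in *Lcn2* null libraries and 321 to 342 CPM in wild type libraries. Most of the mesothelium sum was *Krt8*, which other epithelia express; without it the sums were 15.6 to 20.5 CPM in *Lcn2* null libraries and 74.8 to 121 CPM in wild type libraries. *Msln*, which defines mesothelium, was at 3.38, 1.58 and 1.86 CPM in *Lcn2* null libraries and at 15.1, 11.5 and 7.21 CPM in wild type libraries. Lower calls also fell on 5 of 12 stellate cell and fibroblast, 4 of 8 bile duct, 4 of 11 B and plasma cell and 1 of 12 hepatocyte genes, against 0 of 14 T and NK cell, 0 of 9 dendritic cell and 0 of 11 sinusoidal endothelium genes, and no list had a higher call. *Elane* was at 0 in all 3 *Lcn2* null libraries and *Cd209a* in all 3 wild type libraries; no other listed and summed marker was at 0 in a whole group. The part of these cell types in the chemokine results was not tested.

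**Figure D2:**
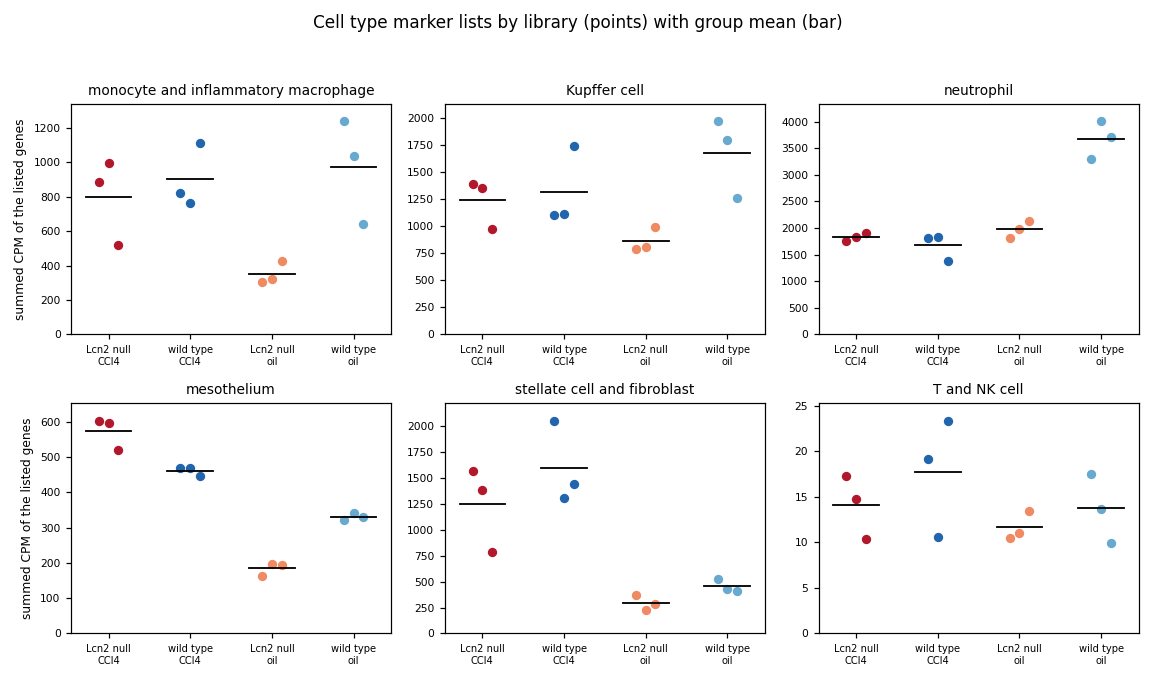
Summed CPM of the genes of 6 marker lists (vertical axis, from 0), with 1 point per library, a bar at the group mean, and the groups in the order *Lcn2* null CCl4, wild type CCl4, *Lcn2* null oil, wild type oil. The *Lcn2* null oil libraries are lowest for the monocyte list, at 304 to 424 CPM, and the wild type oil libraries are highest for the neutrophil list, at 3291 to 4003 CPM.

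Genes that act beside the chemokines shared this direction in part. Of 13 measured chemoattractant receptors outside the family, 2 were lower and 0 higher in *Lcn2* null livers on oil: the complement receptors *C5ar1* (log2 fold change -1.06) and *C3ar1* (-0.89), with a median over the list of -0.50. Of 50 genes that carry the signal of chemokine receptors inside the cell, 12 were lower and 1 higher, with a median log2 fold change of -0.27 beside -0.03 over all genes. They included *Ncf1*, a subunit of the phagocyte oxidase (-1.36), and *Gngt2*, a G protein subunit (-0.95), and the 1 higher gene was *Rgs16*, a brake on G protein signaling (1.58). Of 22 genes for proteases that cut chemokines and for factors that induce them, 4 were lower and 0 higher, among them *Prtn3*, a granule protease of neutrophils (-4.02), *Relb*, a subunit of NF-kappaB (-1.39), and *Adam10*, which sheds *Cxcl16* and *Cx3cl1* (-0.57), and the median was -0.50. The platelet chemokines *Pf4* and *Ppbp*, outside the naming rule, were not called.

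On CCl4, 0 of the 43 members measured were called between *Lcn2* null and wild type livers by limma, where 0.194% of all 14445 genes were called lower and 0.104% higher. At an unadjusted p under 0.05, 3 members were lower and 3 higher, beside 3.79% and 4.87% of all genes, and 26 of 43 had a log2 fold change below 0, beside 42.5%. edgeR called 0 members (background 0.125% lower and 0.0900% higher). DESeq2 called 1 higher (background 0.796% lower and 0.478% higher). The libraries of 2 members were all lower and those of 3 all higher, beside 5.56% and 8.66% of all genes. The median log2 fold change of the members was -0.11, beside 0.04 over all genes. The member that DESeq2 called was *Ccl24*, at 8.04, 4.53 and 9.38 CPM in *Lcn2* null livers, against 3.64, 2.40 and 2.16 CPM in wild type livers, with no overlap (limma log2 fold change 1.13, standard error 0.28, adjusted p = 0.180; DESeq2 adjusted p = 0.00735). Its receptor *Ccr3* was at 1.05, 1.51 and 1.38 CPM in *Lcn2* null livers and 0.773, 0.411 and 0.114 CPM in wild type livers (log2 fold change 0.71, standard error 0.28, adjusted p = 0.468). The libraries of *Ccr3* did not overlap either, on 34 and 14 reads over the groups. *Cxcr4* was at 2.51, 3.32 and 1.0 CPM in *Lcn2* null livers and 4.20, 4.04 and 8.97 CPM in wild type livers (log2 fold change -1.04, standard error 0.35, adjusted p = 0.364). Its ligand *Cxcl12* was at 202, 222 and 184 CPM in *Lcn2* null livers and 283, 226 and 264 CPM in wild type livers (log2 fold change -0.34, standard error 0.11, adjusted p = 0.331). Both genes kept their groups apart in the same direction, and neither passed the test over all genes.

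*Cxcl13* was at 0.527, 1.31 and 0 CPM in *Lcn2* null livers on CCl4, against 1.10, 1.64 and 16.7 CPM in wild type livers (log2 fold change -1.60, standard error 0.64, adjusted p = 0.491). The wild type mean of 6.48 ± 8.84 CPM came mostly from replicate 3, and that library also had the highest *Msln* of its group, 7.49 CPM beside 0.442 and 3.15 CPM. Its summed mesothelium markers were the lowest of the group (447 CPM beside 468 and 469 CPM), and without *Krt8* the highest (113 CPM beside 54.3 and 82.3 CPM). Replicate 3 had the highest summed monocyte markers (1114 CPM beside 825 and 766 CPM) and Kupffer cell markers (1748 CPM beside 1103 and 1112 CPM) of its group as well, and the part of none of these was tested. *Cxcl1* was at 20.7, 25.9 and 11.9 CPM in *Lcn2* null livers and 20.2, 15.8 and 11 CPM in wild type livers (log2 fold change 0.27, standard error 0.27, adjusted p = 0.848). *Ccl2* was at 25.8, 24.2 and 6.63 CPM in *Lcn2* null livers and 18.3, 15.1 and 23 CPM in wild type livers (log2 fold change -0.18, standard error 0.38, adjusted p = 0.931). The groups overlapped for both, and *Lcn2* null replicate 3 had the lowest *Ccl2* by a wide margin. *Cxcl2* (0.125 to 0.791 CPM in *Lcn2* null livers, 0.411 to 0.908 CPM in wild type livers), *Cxcl5* (0.125 to 0.705 and 0.662 to 2.27 CPM) and *Cxcr2* (0.125 to 1.01 and 0.137 to 1.55 CPM) overlapped as well. For the monocyte axis, *Ccr2* had a log2 fold change of -0.30 with a standard error of 0.27, and *Cx3cr1* one of -0.06 with a standard error of 0.31. Among the atypical receptors *Ackr3* was at 7.25, 5.44 and 5.25 CPM in *Lcn2* null livers and 4.42, 2.95 and 3.97 CPM in wild type livers, without overlap (log2 fold change 0.55, standard error 0.24, adjusted p = 0.536). The other members of this comparison lay between -0.70 for *Ackr4*, a scavenger of *Ccl19* and *Ccl21a*, and 0.43 for *Ccl3* on the log2 scale, and *Xcr1* was not in this table, with 5 reads in the *Lcn2* null group and 14 in the wild type group. Of the pathway lists and the marker lists, 0 genes were called in this comparison except 1 hepatocyte gene that was lower. The median log2 fold change was -0.10 for the other chemoattractant receptors, 0.07 for the signaling genes and -0.11 for the proteases and inducers. The summed monocyte markers were 521 to 994 CPM in *Lcn2* null libraries and 766 to 1114 CPM in wild type libraries, which overlapped. A p above the threshold does not show that these levels were alike.

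**Figure D3:**
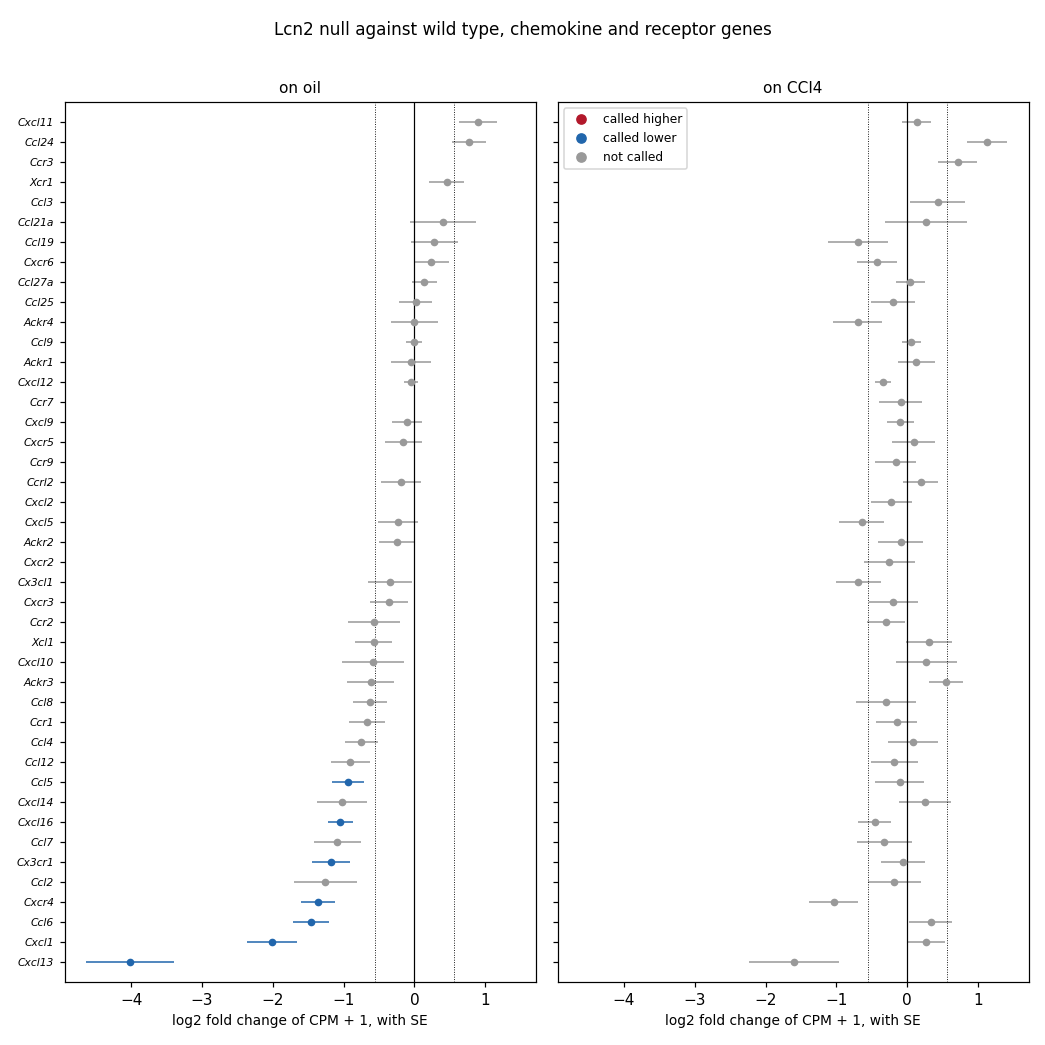
Log2 fold change of CPM + 1 with its standard error (horizontal axis) for the members reported (rows, ordered by the change on oil, with members untested on oil placed by their change on CCl4), *Lcn2* null against wild type, on oil at left and on CCl4 at right; dotted lines mark 0.56 in either direction. On oil 7 members are called lower, from *Cxcl13* at -4.01 to *Ccl5* at -0.94, and on CCl4 none is called.

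CCl4 against oil in *Lcn2* null livers gave the most calls, among the members and among all genes. Of 44 members, 19 were called higher and 2 lower, against a background of 29.6% of all 15645 genes called higher and 4.51% lower. CPM moved upward for most genes in both CCl4 comparisons: the median log2 fold change over all genes was 0.35 here and 0.27 in wild type livers, and changes are to be read relative to it. Rescaled by DESeq2 size factors or by TMM, which brought that median to 0.03 here and 0.01 and 0.02 in wild type livers, 14 members were higher and 4 lower (background 12.5% higher under both, and 10.8% and 10.7% lower), and the share of higher among all called genes went down to 53.5% and 54.0%, beside 86.8% on CPM. Of the 21 calls, 16 stood under either rescaling; those lost included *Ccl2*, *Cx3cl1*, *Cxcl10* and *Cxcl16*, and *Ccl27a* and *Cxcl12* were then called lower. By edgeR 15 members were higher and 4 lower (background 12.7% and 10.9%), and by DESeq2 15 higher and 5 lower (background 13.3% and 11.3%). At an unadjusted p under 0.05, 20 were higher and 4 lower, beside 43.8% and 7.71% of all genes, so the share of higher members was near the background. Without overlap, 18 were higher and 4 lower (40.9% and 9.09%), beside 45.3% and 8.53% of all genes. A log2 fold change below 0 was found for 12, beside 23.3%. The higher calls comprised 10 ligands, 7 receptors and 2 atypical receptors.

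The monocyte receptors *Cx3cr1* and *Ccr2* were called higher. *Cx3cr1* was at 17.5, 20.5 and 7.0 CPM in *Lcn2* null livers on CCl4, against 0.327, 1.0 and 0.868 CPM on oil (log2 fold change 3.11, standard error 0.35, adjusted p = 2.35e-05). *Ccr2* was at 14.6, 18.9 and 8.75 CPM on CCl4, against 0.981, 1.79 and 0.992 CPM on oil (log2 fold change 2.70, standard error 0.29, adjusted p = 1.53e-05). *Ccr1* was at 4.22, 5.44 and 2.38 CPM on CCl4, against 0.436, 0.430 and 0 CPM on oil (log2 fold change 1.93, standard error 0.29, adjusted p = 0.000233). In all of these, replicate 3 was the lowest CCl4 library and still lay above every oil library. Other receptors called higher included *Cxcr4* (1.15), *Ccr3* (0.86) and *Ccr7*, the homing receptor of dendritic and T cells (0.75), all on the log2 scale. *Ccr3* was called by neither edgeR (adjusted p = 0.0809) nor DESeq2 (adjusted p = 0.0761). *Ccr7* rested on 19 reads on CCl4 and 0 on oil, at least 7.74-fold higher, and edgeR called it too (adjusted p = 0.0239), but limma's call was lost without any 1 of the 6 libraries other than CCl4 replicate 3 (adjusted p up to 0.086). The dendritic cell receptor *Xcr1* was called lower, at 0, 0.403 and 0.125 CPM on CCl4, against 1.31, 0.789 and 0.620 CPM on oil (log2 fold change -0.69, standard error 0.24, adjusted p = 0.0341), on 5 and 28 reads. The call of *Xcr1* was lost with edgeR (adjusted p = 0.0594), with the replicate block (adjusted p = 0.053) and without any 1 of CCl4 replicates 1 and 3 and oil replicates 1 and 2 (adjusted p up to 0.12). Of the atypical receptors, *Ackr3* was at 7.25, 5.44 and 5.25 CPM on CCl4, against 0.436, 0.359 and 1.74 CPM on oil (log2 fold change 1.99, standard error 0.30, adjusted p = 0.000239). *Ackr1*, which venules use to present chemokines, had a log2 fold change of 0.97 (adjusted p = 0.00829), which neither edgeR nor DESeq2 called.

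Among the ligands, *Ccl9* was at 261, 269 and 363 CPM in *Lcn2* null livers on CCl4, against 73.9, 99.2 and 92.4 CPM on oil (log2 fold change 1.73, standard error 0.14, adjusted p = 1.36e-06). *Ccl4* and *Ccl3* were nearly absent on oil. *Ccl4* was at 5.14, 4.63 and 1.38 CPM on CCl4 and had 0 reads on oil, at least 39.1-fold higher (log2 fold change 2.12, standard error 0.33, adjusted p = 0.000311). *Ccl3* was at 2.37, 4.43 and 1.38 CPM on CCl4, against 0.109, 0 and 0 CPM on oil (log2 fold change 1.76, standard error 0.30, adjusted p = 0.000482). Both had their lowest CCl4 value in replicate 3. *Ccl6* was at 60.9, 76 and 27.8 CPM on CCl4, against 7.96, 14.3 and 18.8 CPM on oil (log2 fold change 1.88, standard error 0.33, adjusted p = 0.000692). *Ccl7* was at 4.09, 4.63 and 0.875 CPM on CCl4, against 0.109, 0.0717 and 0.496 CPM on oil (log2 fold change 1.64, standard error 0.37, adjusted p = 0.00377). *Ccl6* and *Ccl7*, too, were lowest in CCl4 replicate 3. *Cxcl14* was at 13.1, 11.2 and 8.0 CPM on CCl4, against 2.29, 1.29 and 0.620 CPM on oil (log2 fold change 2.33, standard error 0.29, adjusted p = 5.79e-05). *Cxcl16* was at 29.3, 26.3 and 19.1 CPM on CCl4, against 12.8, 10.8 and 13.1 CPM on oil (log2 fold change 0.95, standard error 0.17, adjusted p = 0.000880). The CCl4 and oil libraries of these 7 ligands did not overlap. The remaining ligands called higher were *Ccl2* (1.34), the interferon-induced *Cxcl10* (1.27) and *Cx3cl1* (0.67), the first with overlapping libraries. *Ccl12* was at 0.659, 1.31 and 0 CPM on CCl4 against 0 reads on oil, at least 7.33-fold higher over the group, but CCl4 replicate 3 also had 0 reads and the gene was not called (adjusted p = 0.0849). *Cxcl13* went the other way, at 0.527, 1.31 and 0 CPM on CCl4, against 3.92, 5.60 and 7.31 CPM on oil (log2 fold change -2.09, standard error 0.33, adjusted p = 0.000300). *Cxcl12* had a log2 fold change of -0.29 (adjusted p = 0.0277), short of the fold threshold on CPM and called lower by edgeR (-0.72, adjusted p = 0.000166). *Cxcl1* was at 11.9 to 25.9 CPM on CCl4 and 10.7 to 26.7 CPM on oil (log2 fold change 0.09, standard error 0.30), and edgeR gave the other sign (-0.37). The other members lay between -0.43 for *Ccl25*, a gut homing ligand, and 0.68 for *Ccl8* and were not called by limma. Of these, edgeR and DESeq2 called *Cxcl9* lower (adjusted p = 0.0343 and 0.0175). Both tools also called *Ccl27a* lower (adjusted p = 0.00226 and 6.84e-05), and DESeq2 called *Ccl8* higher (adjusted p = 0.0454). *Ccl8* had 0.659, 1.81 and 0 CPM on CCl4 and 0, 0 and 0.124 CPM on oil, and its 0 on CCl4 was again replicate 3.

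**Figure D4:**
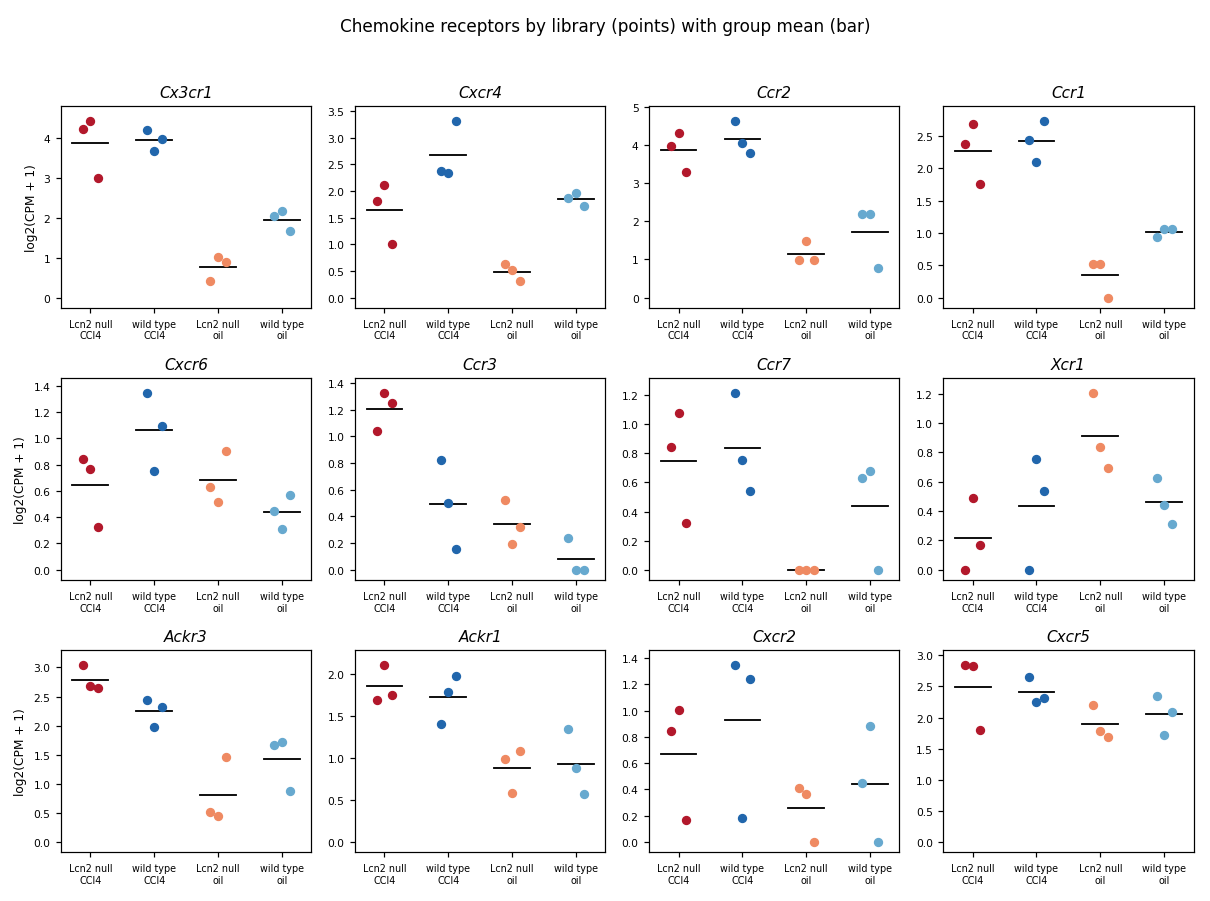
CPM of 12 receptors on the log2(CPM + 1) scale (vertical axis), with 1 point per library, a bar at the group mean, and the groups in the order *Lcn2* null CCl4, wild type CCl4, *Lcn2* null oil, wild type oil. *Cx3cr1*, *Ccr2* and *Ccr1* are higher in every CCl4 library than in any oil library of the same genotype, and *Cxcr4* and *Cx3cr1* are lower in every *Lcn2* null oil library than in any wild type oil library.

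In *Lcn2* null livers, 18 of 20 monocyte and inflammatory macrophage markers were called higher with CCl4, and their sum was 521 to 994 CPM on CCl4 and 304 to 424 CPM on oil. Higher calls also fell on 10 of 14 neutrophil, 9 of 12 stellate cell and fibroblast, 6 of 10 dendritic cell, 5 of 12 mesothelium, 5 of 14 B and plasma cell, 4 of 8 bile duct and 4 of 11 sinusoidal endothelium genes and on 0 of 18 T and NK cell genes. The Kupffer cell list split, with 6 higher and 3 lower of 16, and 2 of 12 hepatocyte genes were lower. Over all genes, 29.6% were called higher and 4.51% lower. The higher shares of the B and plasma cell, sinusoidal endothelium and Kupffer cell lists were not far above that background. Of the signaling list, 29 of 51 genes were higher and 1 lower, among them *Gnb1*, a G protein subunit (log2 fold change 1.09), *Cdc42*, a small GTPase of cell movement (0.81), and *Gnai2*, the inhibitory G protein of leukocytes (1.05). The 1 lower gene was *Rgs16* (-2.77). Of the proteases and inducers 13 of 23 were higher, among them *Mmp12*, a macrophage elastase (5.49), *Adam10* (1.18) and *Mmp14* (1.52). Of the other chemoattractant receptors, 4 of 13 were higher, a share near the 29.6% of all genes, among them *C3ar1* (2.07), *C5ar1* (2.48) and *Ptafr*, the receptor of platelet activating factor (1.21), and of the platelet chemokines *Pf4* was (2.73). The medians of the signaling genes, the proteases and inducers and the other receptors were 0.74, 0.67 and 0.32, beside 0.35 over all genes. The part of these cell types in the chemokine changes was not tested.

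CCl4 against oil in wild type livers gave fewer calls. Of 44 members, 11 were called higher and 2 lower, against a background of 18.5% of all 15841 genes called higher and 3.18% lower. Rescaling left 6 higher and 3 lower members with DESeq2 size factors (background 7.37% and 7.01%) and 6 higher and 2 lower with TMM (background 7.57% and 6.82%), and the share of higher among all called genes went down to 51.3% and 52.6%, beside 85.3% on CPM. By edgeR 5 members were higher and 3 lower (background 7.26% and 6.79%), and by DESeq2 6 higher and 4 lower (background 8.13% and 7.87%). At an unadjusted p under 0.05, 15 were higher and 2 lower, beside 34.9% and 5.96% of all genes, so the share of higher members was near the background. Without overlap, 11 were higher and 3 lower, beside 37.6% and 6.82%, and 13 had a log2 fold change below 0, beside 24.9%. Without wild type oil replicate 2, 8 members were called in all, and the share of all genes called in that fit is not listed here. The calls of *Ackr1*, *Ackr3*, *Ccl19*, *Cx3cl1* and *Cxcr4* were lost under both rescalings, and each had a CPM log2 fold change of at most 1.02. *Ccl9* was at 308, 244 and 302 CPM in wild type livers on CCl4, against 85.6, 87.9 and 91.2 CPM on oil (log2 fold change 1.67, standard error 0.11, adjusted p = 7.24e-08). *Ccl4* was at 4.31, 2.74 and 2.50 CPM on CCl4, against 0.728, 0.720 and 0.601 CPM on oil (log2 fold change 1.29, standard error 0.26, adjusted p = 0.00227). *Cxcl11* was at 6.85, 5.83 and 5.79 CPM on CCl4, against 3.0, 1.56 and 3.01 CPM on oil (log2 fold change 1.05, standard error 0.27, adjusted p = 0.00888). None of these groups overlapped.

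The monocyte receptors were again higher with CCl4. *Cx3cr1* was at 17.2, 11.7 and 14.5 CPM in wild type livers on CCl4, against 3.09, 3.48 and 2.16 CPM on oil (log2 fold change 1.99, standard error 0.24, adjusted p = 2.83e-05). *Ccr2* was at 23.8, 15.6 and 12.7 CPM on CCl4, against 3.55, 3.60 and 0.721 CPM on oil (log2 fold change 2.43, standard error 0.35, adjusted p = 0.000153). *Ccr1* was at 4.42, 3.29 and 5.68 CPM on CCl4, against 0.910, 1.08 and 1.08 CPM on oil (log2 fold change 1.41, standard error 0.27, adjusted p = 0.00133). The 3 genes kept their calls in each of the 18 alternatives tried. Of the calls that did not hold under rescaling, *Ccl19*, a ligand of *Ccr7*, was at 2.98, 2.67 and 4.54 CPM on CCl4, against 1.55, 1.56 and 1.08 CPM on oil. *Cx3cl1* was at 3.86, 2.54 and 1.14 CPM on CCl4, against 1.64, 0.360 and 0.240 CPM on oil, the only one of the 5 whose libraries overlapped. *Cxcr4* was at 4.20, 4.04 and 8.97 CPM on CCl4, against 2.64, 2.88 and 2.28 CPM on oil. *Ackr1* was at 1.66, 2.47 and 2.95 CPM on CCl4, against 1.55, 0.840 and 0.481 CPM on oil, and *Ackr3* had a log2 fold change of 0.82.

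The 2 members called lower were also called lower in the genotype comparison on oil. *Cxcl1* was at 20.2, 15.8 and 11 CPM in wild type livers on CCl4, against 42.8, 67.9 and 134 CPM on oil (log2 fold change -2.19, standard error 0.30, adjusted p = 0.000103). *Cxcl13* was at 1.10, 1.64 and 16.7 CPM on CCl4, against 313, 136 and 25.5 CPM on oil (log2 fold change -4.50, standard error 0.76, adjusted p = 0.000581). Neither had overlapping groups, and both were called in each of the 18 alternatives. These wild type oil libraries also serve as the reference of the genotype comparison on oil, so the 2 results share samples. *Ccl2* was at 18.3, 15.1 and 23 CPM on CCl4 and 36.8, 14.4 and 6.49 CPM on oil, which overlapped (log2 fold change 0.26, standard error 0.39, adjusted p = 0.653), and *Ccl6*, *Cxcl16* and *Ccl5* had log2 fold changes of 0.10, 0.37 and -0.26 and were not called. edgeR gave the other sign for *Ccl2* (-0.37) and *Ccl6* (-0.19), uncalled as well. The other members lay between -0.50 for *Xcl1*, the ligand of *Xcr1*, and 1.06 for *Cxcl14* (adjusted p = 0.0619). Of these, edgeR and DESeq2 called *Ccl27a* lower (adjusted p = 0.0471 and 0.0122), and DESeq2 called *Ccl24* lower (adjusted p = 0.0381). Of the marker lists, neutrophil genes were lower in 6 of 15 cases and Kupffer cell genes in 8 of 16, monocyte genes were higher in 1 and lower in 1 of 20, stellate cell and fibroblast genes were higher in 8 of 12, and mesothelium genes were lower in 7 and higher in 3 of 12. Dendritic cell genes were higher in 4 of 11, bile duct genes in 4 of 9 with 1 lower, sinusoidal endothelium genes in 2 of 11 and T and NK cell genes in 1 of 18, while hepatocyte genes split into 2 higher and 2 lower of 12 and B and plasma cell genes into 1 and 1 of 14. Over all genes, 18.5% were called higher and 3.18% lower. The higher shares of sinusoidal endothelium and hepatocyte genes were near that background. The summed monocyte markers were 766 to 1114 CPM on CCl4 and 640 to 1238 CPM on oil, while *Cx3cr1*, *Ccr2* and *Ccr1* were higher; the part of these cell types in the chemokine changes was not tested. Of the signaling list 6 genes were higher and 1 lower of 51, of the other chemoattractant receptors 5 higher and 1 lower of 14, and of the proteases and inducers 5 higher and 1 lower of 25, with *Mmp12* at a log2 fold change of 4.99, *C3ar1* at 1.48 and *Prtn3* at -2.04. The higher share was below that of all genes for the signaling list and near it for the proteases and inducers. *Pf4* was higher too (1.67). The medians of these lists were 0.28, 0.20 and 0.16, beside 0.27 over all genes.

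**Figure D5:**
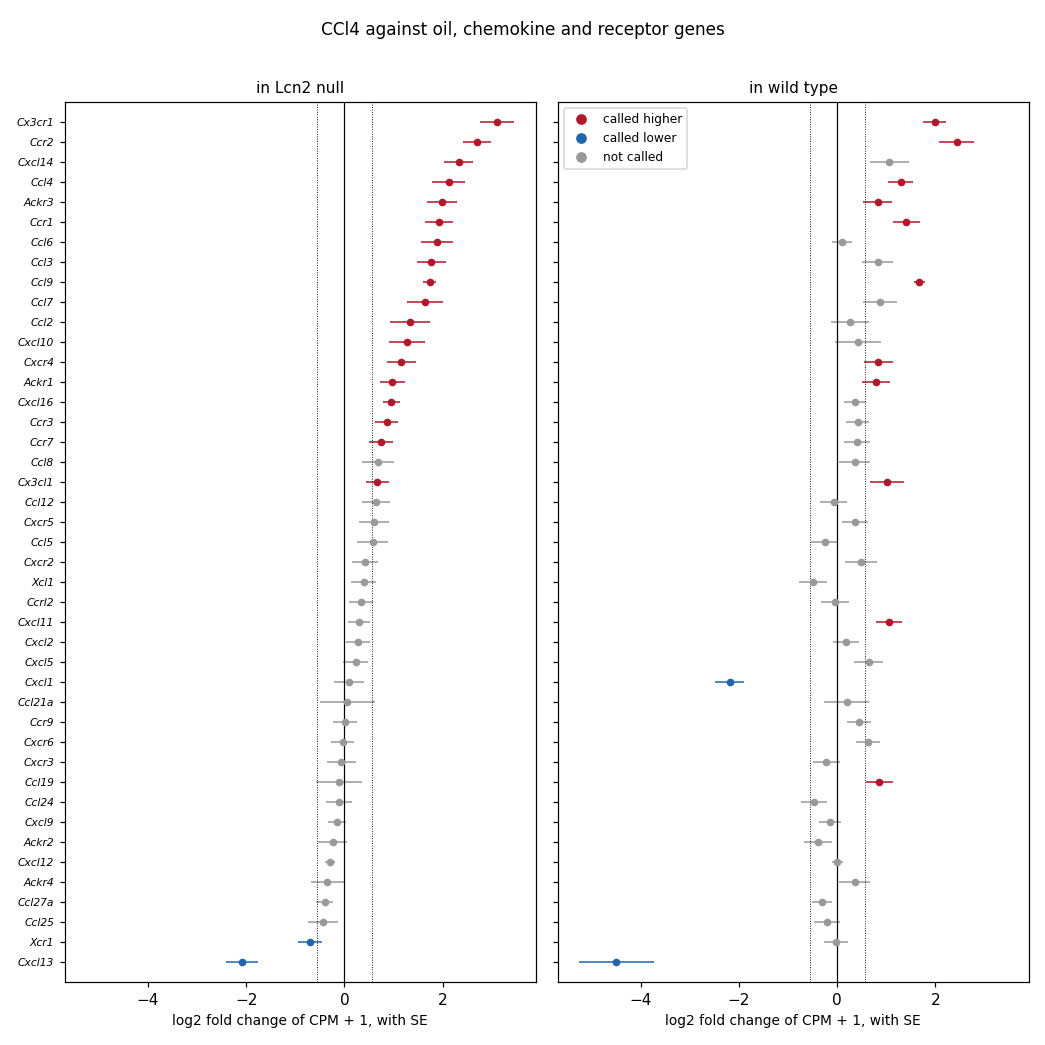
Log2 fold change of CPM + 1 with its standard error (horizontal axis) for the members reported (rows, ordered by the change in *Lcn2* null livers), CCl4 against oil, in *Lcn2* null livers at left and wild type livers at right; dotted lines mark 0.56 in either direction. Of the members drawn, 18 are called higher and 2 lower in *Lcn2* null livers and 11 higher and 2 lower in wild type livers, and *Cxcl1* is called lower in wild type livers, at -2.19, and not called in *Lcn2* null livers.

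Whether the genotypes responded unequally to CCl4 was tested with all 12 libraries in 1 model. Of 44 members, 1 was called, with a difference (*Lcn2* null minus wild type) above 0. The background was 1.08% of all 15210 genes called higher, with a difference above 0, and 0.809% lower. The share of higher among all called genes was 57.1% on CPM and 40.8% and 41.3% after rescaling by DESeq2 size factors and TMM, which left the 1 member called. *Cxcl1* had a CCl4 response of 0.09 in *Lcn2* null livers and -2.19 in wild type livers, so that the responses differed by 2.28 on the log2 scale (standard error 0.51, adjusted p = 0.0283). All 3 wild type oil libraries lay above the other 9 libraries, which ranged from 10.7 to 26.7 CPM. edgeR and DESeq2 called it too (adjusted p = 0.0319 and 0.0235), but it was lost without the trend of the variance (adjusted p = 0.13). It was also lost without any 1 of *Lcn2* null CCl4 replicates 1 and 2, *Lcn2* null oil replicate 1, wild type CCl4 replicates 2 and 3 and wild type oil replicates 2 and 3, with adjusted p up to 0.079. *Ccl6* had a difference of 1.79 (standard error 0.46, adjusted p = 0.0546) and was called by none of the tools. At an unadjusted p under 0.05, the difference was above 0 for 7 members and below 0 for 1, beside 9.74% and 5.18% of all genes. At any p, 13 of the 44 differences were below 0, beside 40.7% of all genes. Those above 0 were *Cxcl1*, *Ccl6*, *Ackr3*, *Cx3cr1*, *Xcl1*, *Cxcl13* and *Cxcl14*, and the 1 below 0 was *Cxcl11*. A difference above 0 can also be a smaller fall in *Lcn2* null livers, as for *Cxcl13*. edgeR also called *Ccl4* (2 members in all, background 0.986% higher and 1.21% lower). DESeq2 also called *Ccl4*, *Ccl12* and *Cx3cr1* (4 in all, background 2.39% and 2.28%), of which *Ccl4* and *Ccl12* had 0 reads in the *Lcn2* null oil group. The median difference over the members was 0.33, beside 0.09 over all genes. Of the other genes of the pathway, *Rac2* (1.13) and *Elmo1* (1.65), which drive the actin changes of moving leukocytes, and *Prtn3* (3.94) had differences called above 0. Of the other chemoattractant receptors, 0 of 13 had one called. The median differences were 0.31 for the signaling genes, 0.35 for the proteases and inducers and 0.37 for the other receptors. Marker genes with a difference called above 0 were 5 of 14 for neutrophils, 4 of 12 for mesothelium, 3 of 20 for monocytes and 2 of 16 for Kupffer cells. They were also 1 of 14 for B and plasma cells and 1 of 8 for bile duct, and 2 of 12 hepatocyte genes had a difference called below 0. The part of these cell types in the difference of *Cxcl1* was not tested.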

How the data were processed

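Liver tissue RNA of 12 libraries, 3 per group, was read as 3′ end (MACE) sequencing on mm10. The authors trimmed, aligned and quantified the reads with TrimGalore, STAR and Salmon in an nf-core pipeline and tested them with DESeq2 1.30.0; the submitters' notes also name a counter. For the libraries, the authors' methods name a 3′ end kit and also a stranded total RNA kit. The strand setting of the counting and the annotation release are not given in the sources used here. Each of the 4 deposited tables, 1 per comparison, holds the authors' CPM of 6 libraries, and a library has the same CPM in each table it is in. The same tables hold the authors' own mean, fold change, standard error, statistic and p-values, and 8 further tables hold their enrichment results; none of these was used. Filters before deposit can set which low genes are in a table.

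Groups were taken from the labels. Each comparison was fitted with limma 3.58.1 (R 4.3.3), with a variance trend, on log2(CPM + 1) of its 6 libraries and all its genes, with Benjamini-Hochberg adjustment over all genes. The difference of the CCl4 response was fitted on all 12 libraries. CPM were whole multiples of the value of 1 read (tolerance 0.001 reads) for 100% of values, so depth was known and reads were recovered for edgeR 4.0.16 (quasi-likelihood) and DESeq2 1.42.0. Fitting was tested on simulated data. Promoter windows came from RefSeq (GRCm38.p6) and positions from GENCODE M21 (GRCm38). Python 3.11.15, pandas 2.3.3, numpy 2.4.6 and matplotlib 3.10.9 drew the plots.

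The members, the pathway lists and the marker lists were chosen with earlier results of these data known. Every library's value was given for members called in a comparison (the 12 with the largest statistic where more were called), for their ligands and receptors, and for *Ccl2*, *Cxcl1*, *Cxcl2*, *Cxcl5* and *Cxcr2*; up to 3 called genes per direction were named of a pathway list. Alternatives were pseudocounts of 0.5 and 5, a minimum mean of 1 CPM, no fold threshold or a log2 threshold of 1, rescaling by DESeq2 size factors or TMM, no variance trend, 1 fit of all 12 libraries, a replicate block, edgeR, DESeq2 and leaving out each library. Protein sequences were not used here. 1 member and 1 pathway gene are in the counts but are not reported here by name or drawn.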

Additional observations from a re-analysis of the deposited data

Results flagged for a closer look

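1 result stood out because a test of the difference itself found unequal responses to CCl4 in the genotypes. The CCl4 response of *Cxcl1* was 0.09 in *Lcn2* null livers and -2.19 in wild type livers on the log2 scale, a difference of 2.28 (standard error 0.51, adjusted p = 0.0283 by limma, 0.0319 by edgeR). The call was lost without the trend of the variance (adjusted p = 0.13) and without any 1 of 7 of the 12 libraries (adjusted p up to 0.079). All *Cxcl1* libraries on CCl4, of either genotype, and all *Lcn2* null oil libraries lay between 10.7 and 26.7 CPM, and the wild type oil libraries lay at 42.8, 67.9 and 134 CPM. The neutrophil markers without *Wfdc21* and *Lrg1*, which hepatocytes also express, summed to 204 to 317 CPM in the wild type oil libraries and to 30.8 to 147 CPM in the other 9 libraries, and their part in this result was not tested.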

How the results depend on the processing

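No called fold change of a named member changed sign under the alternatives run. Of 213 member values over the 5 comparisons, 16 had the other sign with edgeR and 15 with DESeq2, all uncalled by limma; in wild type livers *Ccl2* was 0.26 by limma and -0.37 by edgeR. Over the alternatives of single members, 1153 kept their side of the threshold, 150 lost a call and 38 gained one. The 7 members called on oil became 4 with a pseudocount of 5 and 14 with DESeq2 on recovered reads, and were the same 7 after either rescaling. For *Lcn2* null against wild type on CCl4, DESeq2 called 1. The 13 calls of CCl4 against oil in wild type livers became 7 with a pseudocount of 5, 8 with TMM and 8 with edgeR, and the 1 call of the difference between the responses became 0 without the variance trend, 2 with edgeR and 4 with DESeq2. Over all genes, limma called 2931 higher and 504 lower in wild type livers and edgeR 1150 and 1076. For the difference between the responses limma called 164 and 123 and DESeq2 363 and 347, and for the genotypes on CCl4 limma called 15 and 28 and DESeq2 69 and 115. The cause of these shifts was not tested.

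Leaving out each library gave 5 to 10 called members on oil (10 without wild type oil replicate 3), 0 to 0 on CCl4, 8 to 13 in wild type livers (8 without wild type oil replicate 2), 15 to 25 in *Lcn2* null livers (15 without oil replicate 2, 25 without CCl4 replicate 3) and 0 to 3 for the difference between the responses. The last was 0 without wild type CCl4 replicate 2, wild type oil replicate 2, *Lcn2* null CCl4 replicate 1 or 2, or *Lcn2* null oil replicate 1. It was 3 without *Lcn2* null CCl4 replicate 3 (*Ccl6*, *Cx3cr1* and *Cxcl1*) and 2 without *Lcn2* null oil replicate 3. The share of all genes called with each library left out is not listed here. These ranges therefore cannot be told apart from a change in calls over all genes.

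Samples of the same number did not deviate together over all genes (correlations of -0.091 to 0.061). With 3 libraries per group, this cannot exclude that they share more than a number. With the replicate block 6 members were called on oil, 0 on CCl4, 11 in wild type livers, 18 in *Lcn2* null livers and 1 for the difference. The share of all genes called with the block is not listed here either. Members with a few reads per group, such as *Cxcl2*, *Cxcr2*, *Ccr7* and *Ccl12*, were limited by depth.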
